A study of Caenorhabditis elegans with 2 samples.

Results

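The genes described here are the 254 microRNA genes of Caenorhabditis elegans outside the mir-51 family. They were taken from the Ensembl release 115 annotation of assembly WBcel235 as every gene of type miRNA except the 7 genes mir-51 to mir-56 and mir-55b, so they are 254 of 261 microRNA genes and of 46890 annotated nuclear genes of all types. The experiment mapped where the TRA-4 protein, which has zinc fingers and acts in sex determination, sits on chromatin, by chromatin immunoprecipitation and sequencing (ChIP-seq). The animals were of 1 strain, OP640 (unc-119(tm4063) III; wgIs640), an unc-119 mutant whose integrated transgene wgIs640 makes TRA-4 with GFP and FLAG at its C-terminal end, and its chromatin was pulled down through the GFP with an anti-GFP antibody. Early embryos of both sexes were collected as whole organisms by bleaching, and chromatin was sheared by sonication, in 2 biological replicates. This is the only group: there was no other genotype, stage or treatment, and a control alignment named among the sources of the peak lists was not analysed here. Whole embryos mix many cell types, so binding in a few cells and weak binding in many cannot be told apart.

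A microRNA gene is transcribed into a primary transcript, from which the nucleases Drosha and Dicer cut a hairpin and then a short mature strand. The mature strand guides an Argonaute protein to messenger RNAs that pair with its seed, the stretch from base 2 to base 8. The annotated gene is usually the hairpin alone, so its start is a processing site, and the promoter of the primary transcript can lie farther upstream or be that of a host gene or of the first gene of a cluster. In this worm lin-4 and let-7 time larval development, the mir-35 family is needed for embryonic development, the mir-58 family, related to bantam of Drosophila, is abundant in many tissues, lsy-6 acts in a single taste neuron, and mir-124 and mir-1 mark sensory neurons and muscle.

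Binding was described from 4 deposited lists in the ce11 build, which is WBcel235. The deposited final set was thresholded on the irreproducible discovery rate (IDR), which is computed from how regions rank in replicates. It held 394 peaks, all of them also in the relaxed list of the pooled replicates. The 3 peaks near the genes described here had the same rank in both lists (287, 365 and 390). A peak of this set need not rank alike in the replicates: that at mir-72 ranked 1313 in replicate 1 and 256 in replicate 2. Relaxed lists mix peaks and background, with 9660 regions in the pooled list, 19062 in replicate 1 and 13957 in replicate 2. Of the pooled regions, 535 had a q-value under 0.05. A gene was counted where the summit of a region lay within 500 bp of its annotated start on either side. Regions were ranked within each list by the authors' signal value, rank 1 being the strongest. Read depth is unknown, and the intervals given are exact (Clopper-Pearson) 95% intervals that cover counting error only. Genes that share a region are not independent, which these intervals do not allow for.

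The final set reached 4 members through 3 peaks: mir-72, mir-58a, and the neighbours mir-73 and mir-74. The mature strands of mir-72, mir-73 and mir-74 carry the same seed, GGCAAGA, in capitals below, and mir-58a has the seed GAGAUCG. The sequences were read from the RefSeq genome of WBcel235 at the positions that Ensembl annotates as mature strands, and all are written 5′ to 3′.
mir-72-5p: aGGCAAGAuguuggcauagcuga
mir-73-3p: uGGCAAGAuguaggcaguucagu
mir-74-3p: uGGCAAGAaauggcagucuaca
mir-58a-3p: uGAGAUCGuucaguacggcaau
The seed GGCAAGA was found in 6 of the genes, and 3 of these 6 had an IDR summit, through 2 peaks, beside 1.28% of all genes. It is given because members of the final set carry it, so the count was fixed in part by that choice. A link between seed and binding was not tested. The other members with this seed, mir-266, mir-8187 and mir-8188, had no IDR or pooled summit. The seed of mir-58a differs from GAGAUCA, the seed shared by mir-58b, mir-58c, mir-80, mir-81, mir-82 and mir-2209a. None of those 6 genes had an IDR summit, and 1 of them, mir-80, had a pooled summit, beside 1.28% and 10.6% of all genes.

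The DNA under the 3 peaks is shown because these are the peaks of the final set near members and, in the pooled list, the strongest regions near any of the 254 genes. In each replicate alone, regions at other members outranked some of them, such as mir-86 at rank 372 in replicate 1 and mir-62 at rank 361 in replicate 2. Each run is 101 bases of the plus strand centred on the pooled summit, from the RefSeq sequence of WBcel235. At chrII:2452997-2453097, beside mir-72, and at chrIV:3233129-3233229, beside mir-58a, the capital is the summit base. At chrX:2368542-2368642, upstream of mir-73 and mir-74, the capitals mark GAGAGA, one of 4 short motifs searched.
mir-72: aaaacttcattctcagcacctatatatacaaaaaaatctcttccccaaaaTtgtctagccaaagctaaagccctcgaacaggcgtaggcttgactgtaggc
mir-58a: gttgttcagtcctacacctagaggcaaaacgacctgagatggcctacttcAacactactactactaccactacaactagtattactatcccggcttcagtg
mir-73 and mir-74: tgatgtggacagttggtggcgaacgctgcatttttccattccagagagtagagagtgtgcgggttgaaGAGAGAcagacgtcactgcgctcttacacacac
None of these windows holds a base of a hairpin. All 3 genes or gene pairs are on the plus strand, so the windows read in the direction of the hairpins.

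Few microRNA genes outside the mir-51 family were near the final set, and their share was close to that of genes at large. An IDR summit was present at 4 of 254 microRNA genes (1.57%, interval 0.431 to 3.98%) and at 1.28% of all genes. The same 4 were the only members with a pooled summit of q under 0.05, again 1.57%, beside 1.58% of all genes. Both counts are taken from regions of the pooled list, so they are not independent. Neither share is a result about these genes, being near the background.

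In the relaxed lists the share was higher than the background. The pooled list reached 61 microRNA genes (24.0%, interval 18.9 to 29.8%), and 10.6% of all genes. Replicate 1 alone reached 86 (33.9%), beside 18.6% of all genes, and replicate 2 alone reached 76 (29.9%), beside 13.6%. In both replicates, 56 members had a summit (22.0%, interval 17.1 to 27.7%), beside 7.88% of all genes. In the pooled list and both replicates together there were 50 (19.7%), beside 6.97%. The piRNA genes, 15363 small genes that are rarely near a region, lower the background. Without them an IDR summit was near 1.89% of genes, a pooled summit near 14.2%, and summits of both replicates near 10.7%. No test was made of these shares, since the genes were chosen with results of these data known.

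Among gene types the microRNA genes stood below the tRNA and snoRNA genes and above the protein-coding genes in the relaxed lists. With summits of both replicates they were close to the snRNA genes, which had a higher pooled share (30.2%, beside 24.0% of microRNA genes). In the final set they were near the lincRNA, ncRNA and protein-coding genes. An IDR summit was near 21.4% of 612 tRNA genes, 15.6% of 346 snoRNA genes and 10.9% of 129 snRNA genes. It was near 2.34% of 7764 genes of type ncRNA, 1.55% of 194 lincRNA genes and 0.981% of 19973 protein-coding genes. Summits of both replicates were near 46.2% of tRNA, 33.5% of snoRNA, 21.7% of snRNA, 13.1% of ncRNA, 9.79% of lincRNA and 8.93% of protein-coding genes. All 7 mir-51 family genes had an IDR summit and a summit in every list.

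**Figure D1:**
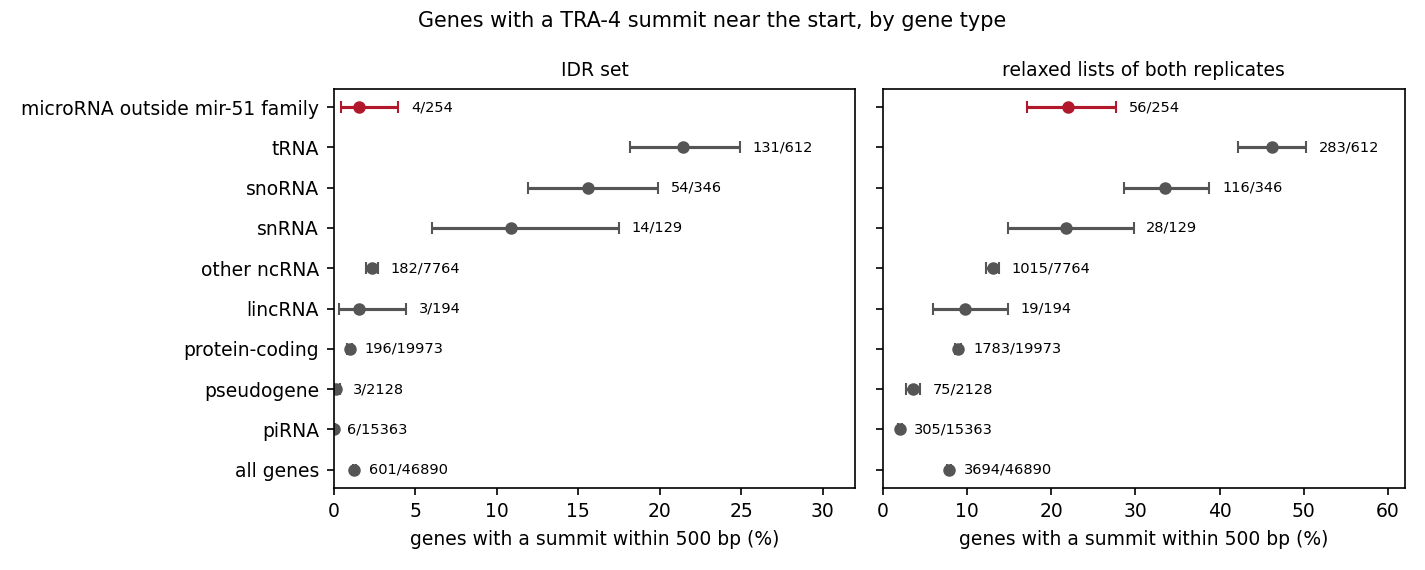
Share of genes (%) of each annotated type with a summit within 500 bp of the start, in the IDR set and in the relaxed lists of both replicates. Points are shares, bars exact 95% intervals for counting error, and the numbers are genes with a summit over genes; the microRNA genes, in red, are at 1.57% and 22.0%, beside 1.28% and 7.88% of all genes.

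No summit of any of the 4 lists was within 500 bp of 148 of the 254 members (58.3%), beside 75.5% of all genes. Of the 106 with one in at least 1 list, 4 were in all 4 lists, 46 in the pooled list and both replicates but not in the final set, 6 in the pooled list and replicate 2 only, and 5 in the pooled list and replicate 1 only. A further 6 were in both replicates but not in the pooled list, 25 in replicate 1 alone and 14 in replicate 2 alone. Of all genes, 24.5% had a summit in at least 1 list and 6.97% in the pooled list and both replicates. The rest of this split was not computed for all genes, so it is not a result about the members.

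The region beside mir-72 ranked highest in the pooled list. This gene lies at chrII:2452838-2452936 on the plus strand, outside any protein-coding gene. The IDR peak (chrII:2452807-2453286) had signal 112.7, −log10 q 2.06 and rank 287 of 394. Its summit lay 209 bp downstream of the start, beyond the end of the hairpin, inside the span of pqn-42, a gene on the other strand whose annotated 3′ end is the nearer one. In replicate 2 the summit was 208 bp downstream at rank 256 (signal 75.3, −log10 q 2.76). In replicate 1 it was 141 bp downstream at rank 1313 (signal 32.5, −log10 q 0.610). Signal scales differ between lists, so only the ranks can be set side by side, and the rank was lower in replicate 1.

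At mir-58a both replicates had a pair of strong regions, and it was the only member among the strongest 394 regions of each replicate. The gene lies at chrIV:3233254-3233350 in an intron of Y67D8A.2, on the same strand. The IDR peak (chrIV:3232939-3233418) had signal 104.1, −log10 q 1.75 and rank 365, with the summit 75 bp upstream of the start. In replicate 1 the regions ranked 93 and 269, with summits 261 and 49 bp upstream. In replicate 2 they ranked 210 and 328, with summits 101 and 300 bp downstream. All 4 of these had a −log10 q of 2.12 or more, but they lay upstream of the start in replicate 1 and downstream in replicate 2, and the pooled summit lay between those of replicate 1. The pooled summit falls inside the annotated noncoding RNA Y67D8A.6, whose start is nearer to it than that of mir-58a.

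The peak upstream of mir-73 and mir-74 was close to the end of the final set. The genes lie at chrX:2368765-2368863 and chrX:2369043-2369139 on the plus strand, outside any protein-coding gene. The IDR peak (chrX:2368352-2368831) had signal 102.2, −log10 q 1.72 and rank 390 of 394. Its summit was 173 bp upstream of mir-73 and 451 bp upstream of mir-74. In replicate 1 the region ranked 653 (−log10 q 1.07), with the summit 216 bp upstream of mir-73. In replicate 2 it ranked 503 (−log10 q 1.39), with the summit 154 bp upstream. Neither replicate placed it among its strongest 394 regions, while the positions of the summits were close to each other. The summit is inside T24D8.11, a noncoding RNA on the other strand. The next gene of this cluster, mir-75, had only a replicate 1 summit, 418 bp downstream at rank 3642.

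All 3 peaks were in the weaker part of the final set, whose signal ran between 101.6 and 610.9 with a median of 134.7. No member was near any of the stronger 197 IDR peaks. The choice of 500 bp mattered little here: the farthest IDR summit inside it was 451 bp from its member's start, and no member gained one between 500 and 1000 bp.

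Below the final set, the strongest pooled regions lay at mir-62, the mir-35 cluster, mir-8201, mir-86 with mir-8211, mir-87, and mir-61 with mir-250. The short hairpin of mir-62 sits in an intron of ugt-50 on the same strand. Its pooled region ranked 595 (−log10 q 1.18, summit 398 bp upstream) and its replicate 2 region 361, while replicate 1 had none. The gene mir-8201 lies in an intron of hil-2, which encodes a linker histone, and had ranks 797 in the pooled list, 2432 in replicate 1 and 935 in replicate 2. At mir-86 and mir-8211, in Y56A3A.7, the ranks were 832, 372 and 5045 in the same order of lists. At mir-87, in kup-1, they were 877, 1864 and 1218. At mir-61 and mir-250 they were 911, 3005 and 405. All of these had a q-value over 0.05 in the pooled list. The ranks of the replicates were near each other at mir-35 to mir-40 and at mir-87, and far apart at mir-86 and mir-61. A protein-coding start also lay within 500 bp of 2 of these pooled summits. It was that of hil-2 at mir-8201 and that of F55A11.4 at mir-61 and mir-250, though the microRNA start was nearer in each case.

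The mir-35 family was near pooled regions in full, through shared regions. Its 8 genes carry the seed CACCGGG, shown in capitals for 4 of them because the family is defined by it.
mir-35-3p: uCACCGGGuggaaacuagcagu
mir-36-3p: uCACCGGGugaaaauucgcaug
mir-41-3p: uCACCGGGugaaaaaucaccua
mir-42-3p: uCACCGGGuuaacaucuacaga
All 8 had a summit in the pooled list and in each replicate, and none had an IDR summit. Of all genes, 10.6% had a pooled summit, 7.88% summits of both replicates and 1.28% an IDR summit. The 8 genes had 3 distinct pooled regions, so they do not stand for 8 observations. The genes mir-35 to mir-41 lie within chrII:11537608-11538404 on the plus strand, inside the protein-coding gene Y62F5A.9, which runs on the other strand. For mir-35 to mir-40 the strongest region ranked 682 in the pooled list (−log10 q 1.07), 611 in replicate 1 and 423 in replicate 2. For mir-41 the ranks were 1245, 1033 and 423. The summit of the first of these pooled regions lies inside the hairpin of mir-36, in the window chrII:11537703-11537803 (plus strand), where 93 bases in capitals belong to hairpins.
mir-35 cluster: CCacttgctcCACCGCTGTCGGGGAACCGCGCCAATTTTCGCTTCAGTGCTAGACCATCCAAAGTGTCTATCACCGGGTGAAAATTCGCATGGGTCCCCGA
The summit of replicate 1 was 147 bp downstream of the mir-35 start, that of the pooled list 145 bp and that of replicate 2 384 bp. The remaining member, mir-42, belongs to another cluster on chromosome II with mir-43 and mir-44, with ranks 4763 in the pooled list, 10146 in replicate 1 and 5174 in replicate 2.

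**Figure D2:**
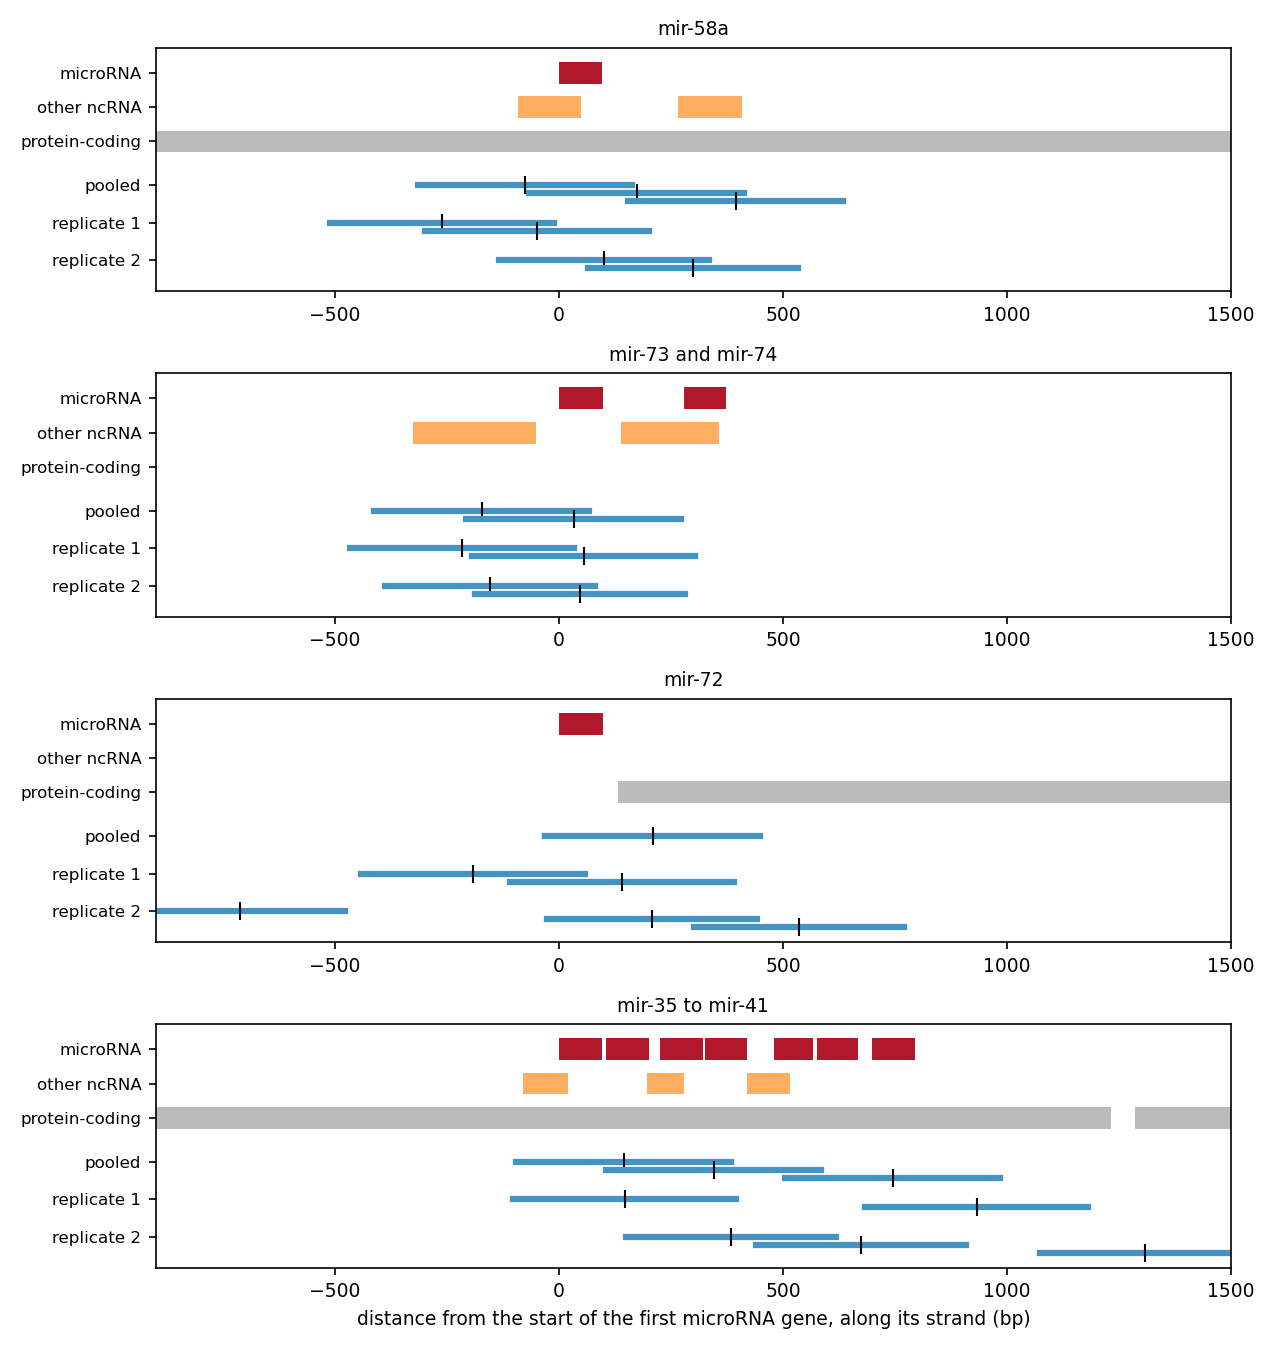
Regions of the pooled and replicate lists (blue lines, summits as black ticks) around mir-58a, mir-73 and mir-74, mir-72 and the mir-35 cluster, drawn to scale along the strand of the first microRNA gene, in bp from its start. Bars above show microRNA, other noncoding and protein-coding genes; at mir-58a the replicate 1 summits lie 261 and 49 bp upstream and the replicate 2 summits 101 and 300 bp downstream.

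In the mir-58 family 9 genes matched by name, of which mir-2209b and mir-2209c carry neither GAGAUCA nor GAGAUCG as a seed. An IDR summit was near 1 of the 9, a pooled summit near 2 and summits of both replicates near 4. The shares of all genes were 1.28%, 10.6% and 7.88%. The members with summits of both replicates were mir-58a, mir-80, mir-2209a and mir-2209c. Of these, mir-2209a and mir-2209c shared 1 region in each replicate, at ranks 12559 and 9504. Besides mir-58a the one with a pooled summit was mir-80, with rank 2913 in the pooled list, 17858 in replicate 1 and 1144 in replicate 2. The 4 genes of the mir-64 family, mir-229, mir-64, mir-65 and mir-66, lie in an intron of gcn-1, whose yeast counterpart acts in the response to amino acid starvation. All 4 had a pooled summit and one in each replicate, in 2 pooled regions, of which the stronger, at mir-229, ranked 2832 (862 in replicate 1 and 6082 in replicate 2). Their seed AUGACAC is also carried by mir-63, outside that list, on the X chromosome, which had no summit in any list. In the mir-44 family 3 of 4 had a pooled summit, with mir-61 the strongest, and mir-45 at rank 3226. In the mir-2 family 3 of 4 had one: mir-250, mir-2 at rank 1335 (881 and 460 in replicates 1 and 2), and mir-43. Beside these pooled counts stand 10.6% of all genes, and members of these families can share a region.

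The remaining named microRNAs include regulators of developmental timing and genes of neurons and muscle. The developmental timer let-7, annotated here as a gene of 1732 bp, so that its start is not the hairpin's, had no summit in any list. Of the 7 genes of the let-7 family, 1 had a pooled summit, beside 10.6% of all genes. This was mir-794, at rank 6077 (13261 in replicate 1 and 8581 in replicate 2). The genes mir-84 and mir-241 had one in replicate 1 only, at ranks 5683 and 18679. The timer lin-4 had no pooled summit and ranked 18461 in replicate 1 and 8155 in replicate 2, while its relative mir-237 had none. Neither lsy-6 nor mir-124 had a summit in any list. At mir-1 the pooled rank was 5905, with ranks 860 and 11184 in replicates 1 and 2 and summits on opposite sides of the start. The gene mir-71 had none within 500 bp, its nearest pooled summit being 675 bp upstream at rank 1344, and mir-228 had one in replicate 2 alone, at rank 2266.

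Clustered microRNA genes had pooled regions more often than single ones when all were counted. A gene was called clustered where another microRNA gene on its strand started within 10 kb, which held for 76 members in 27 clusters, the largest of 11 genes, and left 178 single. A pooled summit was near 29 of 76 clustered members (38.2%, interval 27.2 to 50%) and 32 of 178 single members (18.0%, interval 12.6 to 24.4%), beside 10.6% of all genes. Summits of both replicates were near 27 clustered (35.5%) and 29 single members (16.3%), beside 7.88%. An IDR summit was near 2 of each, 2.63% of clustered and 1.12% of single members, beside 1.28% of all genes. Counted by locus, so that a cluster counts once, 13 of 27 clusters (48.1%, interval 28.7 to 68.1%) and the same 18.0% of single genes had a pooled summit. A cluster spans more starts, and so more window, than a single gene, and the part this plays was not tested. Of the 29 clustered members with a pooled summit, 27 have a number under 1000 in their name, out of 48 so named (56.2%). The other clustered members did not have the higher share. Among intergenic members, summits of both replicates were near 18.5% of 54 clustered and 16.3% of 98 single genes. The cluster of 11 genes on the X chromosome, mir-4807 to mir-4921, had no summit in any list.

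Members inside protein-coding genes had pooled regions more often than intergenic ones when all were counted, but among single genes the shares were close. A protein-coding gene on either strand enclosed 102 members, 73 on the same strand and 29 on the other, and 152 were intergenic. A pooled summit was near 33 hosted members (32.4%, interval 23.4 to 42.3%) and 28 intergenic ones (18.4%, interval 12.6 to 25.5%), beside 10.6% of all genes. Summits of both replicates were near 30 (29.4%) and 26 (17.1%), beside 7.88%. The intervals of the pooled shares overlap. Among single genes, summits of both replicates were near 16.2% of hosted and 16.3% of intergenic members, and a replicate 1 summit near 28.8% and 29.6%. The shares were alike on both strands: 23 of 73 same-strand members (31.5%) and 10 of 29 antisense ones (34.5%) had a pooled summit. In the final set the order was the other way, with 1 hosted (0.980%) and 3 intergenic members (1.97%), beside 1.28% of all genes, counts too small to read.

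Members that were clustered and hosted at once had the highest share of the 4 combinations. Of these 22 genes, 17 had a pooled summit (77.3%, interval 54.6 to 92.2%), and the same count had summits in both replicates, beside 10.6% and 7.88% of all genes. The pooled share was 22.2% of 54 clustered and intergenic members, 20% of 80 single and hosted ones and 16.3% of 98 single and intergenic ones. The 22 genes are few loci. Of 6 clusters wholly inside protein-coding genes, 6 had a pooled summit and summits in both replicates near at least 1 member: those of mir-2 in ppfr-1, mir-35, mir-229, mir-86, mir-357 in symk-1 and mir-1829c in piki-1. Of 19 clusters with no hosted member, 6 had a pooled summit (31.6%). At mir-1829c (pooled rank 1077) a tRNA gene lies at the summit, nearer than the microRNA. The grouping into wholly hosted clusters was made after the values were seen.

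**Figure D3:**
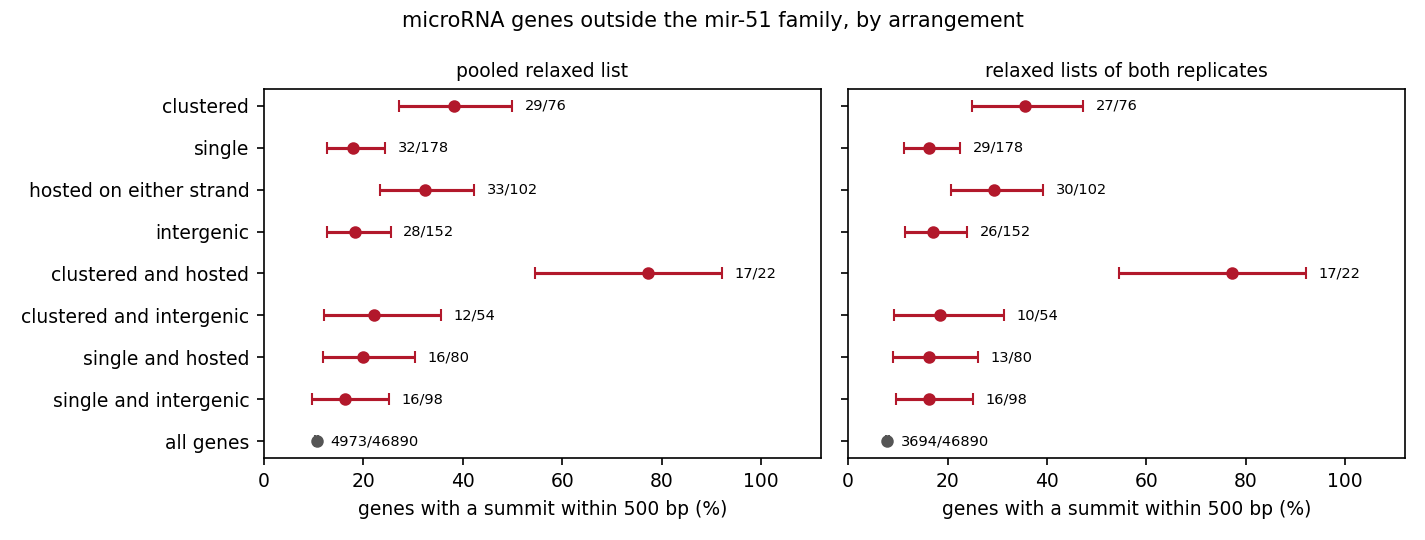
Share of microRNA genes (%) with a summit within 500 bp of the start by arrangement, in the pooled list and in both replicates, with all genes last. Points are shares and bars exact 95% intervals for counting error; the clustered and hosted genes, 17 of 22 in both panels, are above every other group.

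Within 1000 bp of a protein-coding start lay 75 members, of which 24 had a pooled summit (32%), as had 37 of the other 179 (20.7%), beside 10.6% of all genes. An IDR summit was near 0 of the 75 (interval 0 to 4.80%) and 4 of the 179 (2.23%, interval 0.612 to 5.62%), beside 1.28% of all genes, and these intervals overlap. By chromosome the pooled share ran between 10.6% of 47 members on IV and 46.9% of 49 on II, with 40.7% of 27 on III, 21.2% of 33 on I, 17.9% of 28 on V and 14.3% of 70 on X. Chromosome II holds the mir-35 family, which is 8 of its 23 members with a pooled summit.

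The name of a microRNA gave a further split, chosen after values were seen. Numbers follow the order of naming, and 130 members have a number under 1000 or the names let-7, lin-4 or lsy-6. A pooled summit was near 40 of these 130 (30.8%) and 21 of the 124 others (16.9%), beside 10.6% of all genes. Among hosted members the shares were 46.5% of 43 and 22.0% of 59, and among intergenic ones 23.0% of 87 and 12.3% of 65. Among clustered members, 27 of the 48 with a number under 1000 (56.2%) had a pooled summit. Among single genes 13 of the 82 with these names had one (15.9%), beside 18.0% of all 178 single genes. The higher share of these names therefore did not hold among single genes. An IDR summit was near 4 of the 130 (3.08%, interval 0.845 to 7.69%) and 0 of the 124 (interval 0 to 2.93%), beside 1.28% of all genes.

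The regions near members were spread through the relaxed lists. The 61 members with a pooled summit shared 47 distinct regions as their strongest, with a median rank of 2913, or 30.2% of the way down the list, and ranks between 287 and 9293. Rank 1000 or better was held by 9 of the 47 (19.1%), beside 10.4% of the list. In replicate 1 there were 72 regions with a median rank of 7058.5 (37.0% of the list) and 9 of rank 1000 or better (12.5%, beside 5.25% of the list). In replicate 2 there were 59, with a median rank of 5045 (36.1%) and 11 of rank 1000 or better (18.6%, beside 7.16%). Only the strongest region in each member's window was kept, while the lists hold every region. That choice by itself favours better ranks at members, and the part it plays was not tested.

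The replicates shared part of their members, with loose agreement in rank. Of the 86 members with a summit in replicate 1, 30 had none in replicate 2. Of the 76 in replicate 2, 20 had none in replicate 1. The 56 members with a summit in both formed 44 distinct pairs of regions, whose ranks had a Spearman rho of 0.430, given as a description over regions of 1 experiment. Both ranks were 1000 or better in 4 of the 44 pairs, which are near 10 members: mir-2, mir-35 to mir-40, mir-58a, and mir-73 with mir-74. The summits of the 2 replicates were within 100 bp of each other at 21 of 56 members (37.5%), and their median distance was 159.5 bp.

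**Figure D4:**
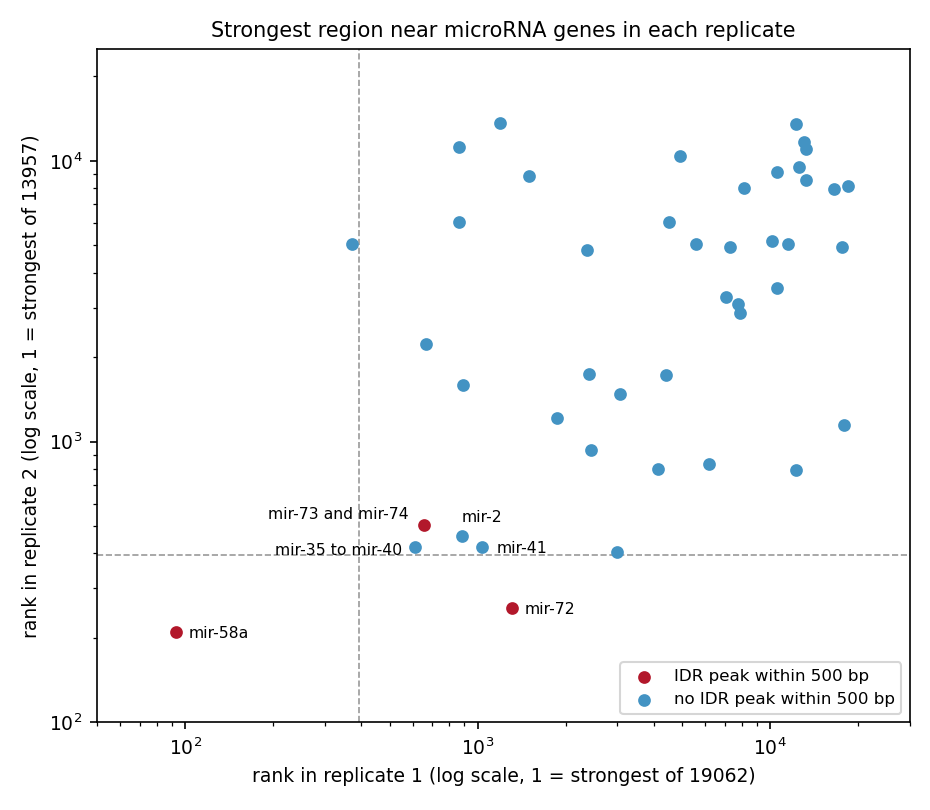
Rank of the strongest region near each microRNA locus in replicate 1 and replicate 2, both on log axes, for the 44 distinct pairs of regions; red points have an IDR peak and dashed lines mark rank 394, the size of the final set. Only mir-58a lies inside both lines, and mir-72 (ranks 1313 and 256) lies inside that of replicate 2 alone. The pair mir-73 and mir-74 (653 and 503) is near the corner, as are mir-35 to mir-40 (611 and 423), which have no IDR peak.

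Summits were broadly placed about the starts. In the pooled list the median position was 69 bp upstream, written −69 (quartiles −235 and 78), and 38 of 61 summits were upstream (62.3%, interval 49.0 to 74.4%). The medians of the replicates were −81 and 2 bp, with the pooled median between them. Within 100 bp of the start lay 29.5% of the pooled summits, beside 69.0% at tRNA genes, 56.5% at snoRNA genes and 20.5% at protein-coding genes. Inside the annotated hairpin or gene lay 8 of 61 (13.1%). The median was −171 bp at clustered members and −16.5 bp at single ones, and genes late in a cluster count a summit at the cluster's front as upstream. At hosted members it was −109 bp on the same strand and −130 bp on the other, and at intergenic members −36 bp.

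**Figure D5:**
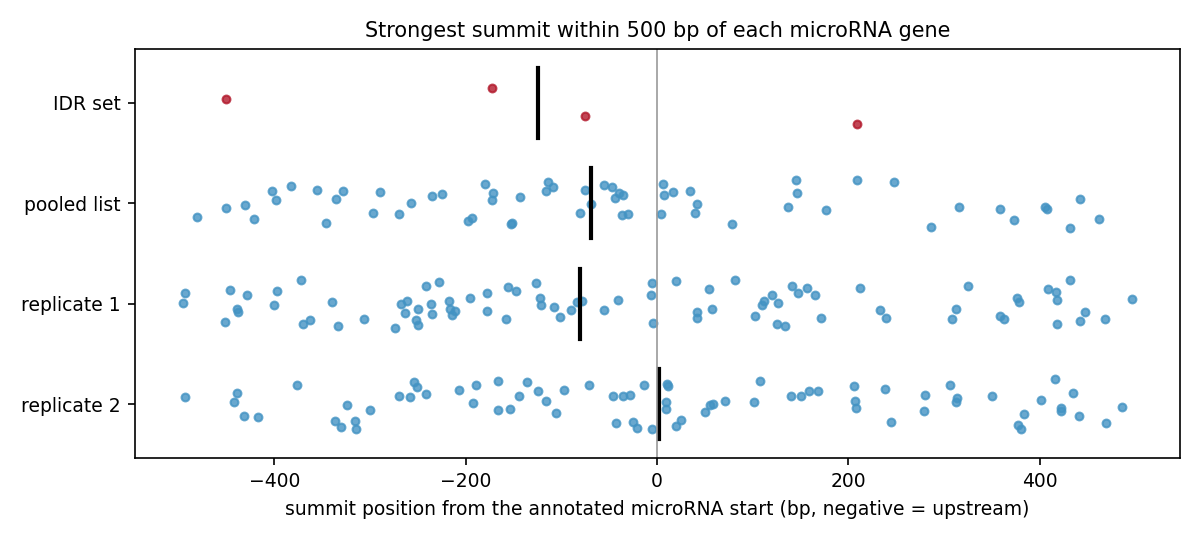
Position of the strongest summit within 500 bp of each microRNA start, in bp along the gene's strand with upstream negative, in the IDR set, the pooled list and each replicate. Points are members (height is random) and black bars medians, which are −124, −69, −81 and 2 bp; the points fill the whole window in the relaxed lists.

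Other annotated genes often lay at the same regions. Of the 47 pooled regions 15 (31.9%) had another gene start nearer to the summit than the microRNA's. A start of a noncoding RNA of type ncRNA was within 500 bp of 19 (40.4%), beside 12% of the other pooled regions. For protein-coding starts the numbers were 11 (23.4%), beside 24.5%, for tRNA starts 1 (2.13%), beside 3.51%, and for snoRNA starts 1 (2.13%), beside 1.52%. Where such an ncRNA is annotated beside a hairpin, as at mir-58a, the region cannot be given to one of them.

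Short motifs were searched within 50 bp of the summits on both strands. GGTTCGA, part of the internal promoter of tRNA genes, was in 1 of the 47 regions near members (2.13%), that of mir-1829c with its tRNA, beside 15.0% of the IDR peaks and 1.26% of the other pooled regions. GAGAGA was in 4 (8.51%), beside 11.9% and 7.55%. CTCCGCC and CACGTG were in 1 each (2.13%), beside 3.55% and 3.05% of the IDR peaks and 1.92% and 1.95% of the other pooled regions. With 47 regions, 1 region is 2.13%, and no test was made. The median GC content of the windows was 45.5% at members, 49.5% at IDR peaks and 39.6% at the other pooled regions.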

How the data were processed

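ChIP-seq peak lists of TRA-4 in early embryos, 2 replicates of 1 group, were used in the ce11 build. Per the deposited file descriptions, the relaxed lists of each replicate and of the pooled replicates hold peaks and background and were made with a control alignment, and the final set was selected from them by IDR. The signal value of each region and the −log10 q-value are those deposited by the authors, and the signal served only to rank regions within a list. No peak caller, aligner, IDR cutoff or read depth is given in the sources used here. The 4 lists in ce10 were not used.

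Gene starts, types and mature strands came from Ensembl release 115, and sequences from the RefSeq genome of the same assembly, checked by chromosome lengths. Ensembl lists let-7 under a miRBase accession, so its symbol was taken from RefSeq. The name mir-1834 did not match, and mir-58 and mir-2209 matched members with a letter. Counts, medians and exact intervals were computed with Python 3.11.15, pandas 2.3.3, numpy 2.4.6 and scipy 1.17.1, and the overlap code was tested on simulated data. No test between groups was possible or made.

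Named are members with an IDR summit or a pooled summit of q under 0.05, the 5 strongest other pooled members, the strongest member of each family list, and 10 fixed names (lin-4, let-7, lsy-6, mir-1, mir-35, mir-58, mir-71, mir-80, mir-124 and mir-228). Further names were chosen after their values were seen. The members, lists and motifs were chosen with earlier results of these data known. Alternatives were other windows, stronger regions only, each replicate alone, and other definitions of clusters and hosts.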

Additional observations from a re-analysis of the deposited data

How the results depend on the processing

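Of 54 alternatives over 14 results, 34 stayed within 1.5 times the value given (positions within the spread of the replicates) and 20 did not. With the stronger 197 IDR peaks alone the count of members was 0, and so it was for clustered, single, hosted and intergenic members. With pooled regions of q under 0.05 alone, 4 members remained of 61. In a window of 250 bp, 26 members had summits in both replicates, 55 in replicate 1 and 48 in replicate 2. With the strongest 5000 regions of each replicate the counts were 24, 41 and 38. Shares of all genes were not computed for that window or those regions. These counts therefore do not show whether the shares stayed above the background. Counted by locus, 1 cluster had an IDR summit and 13 a pooled one. These alternatives use fewer regions, a narrower window or larger units by construction. Taking the 394 strongest regions of 1 replicate in place of the final set gave 3 members either way. It gave 0 to 2 clustered, 1 to 3 single, 2 to 3 hosted and 0 to 1 intergenic members. The order of hosted and intergenic members was thus not that of the final set, but these counts are too small to read. The members were mir-72, mir-58a and mir-62 without replicate 1, and mir-86, mir-8211 and mir-58a without replicate 2. Of the latter, mir-86 and mir-8211 shared 1 region. Shares of all genes were not computed for these sets. When all members were counted, the higher pooled share of clustered and of hosted members kept its direction under each definition. It was 49.0% against 18.0% with clusters within 1 kb and 35.1% against 17.5% with clusters on either strand. For hosts it was 31.5% against 21.0% on the same strand and 29.4% against 19.3% with any type but miRNA and piRNA.

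No paired analysis was possible because there is 1 group. Read depth is unknown, so the lists do not tell an absent region from one below detection, and the relaxed lists include background by design.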

Other observations

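Some members had a pooled region only outside 500 bp. The nearest was mir-355, with a summit 506 bp downstream at rank 7693, then mir-357, 514 bp upstream at rank 5380. The strongest was at rank 494, 892 bp downstream of mir-4921, the last gene of the X cluster of 11 that had no summit within 500 bp. At mir-354 a summit lay 821 bp upstream at rank 722. In all, 21 members had a pooled summit between 500 and 1000 bp and none within 500 bp. The share of all genes was not computed for this distance, so the count cannot be set against a background. Some of these summits were already counted for a neighbour, such as that of mir-357, which is the pooled region of mir-358. These members were chosen after their values were seen.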
